A study of Mus musculus with 3 samples.

Results

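Elastic fibre genes encode elastin and the proteins that surround, anchor or cross-link it in the extracellular matrix. The set was taken as 10 listed genes, Eln, Fbn1, Fbn2, Fbln1, Fbln2, Fbln5, Mfap4, Mfap5, Emilin1 and Loxl1, of 32285 genes counted. They were followed across cell classes, fibroblast clusters and genotypes in single cells of the mouse heart. The 3 libraries were of mice with the Myh6-R404Q point mutation, of mice with the Prkag2-p.R299Q point mutation, and of WT mice. Myh6-R404Q changes the alpha myosin heavy chain of heart muscle, and Prkag2-p.R299Q changes a regulatory subunit of the energy sensor AMP-activated protein kinase. Both mutations are used to model inherited cardiomyopathy. All animals were male and of strain C57/B6J, and the hearts were digested with collagenase and sampled as total cells. The sources used here do not give age, zygosity or how many animals went into a library. With 1 library per genotype, no difference between genotypes has a replicate check, no test was made, and every interval below is a 95% interval that covers counting error only.

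An elastic fibre consists of a core of cross-linked elastin and a mantle of microfibrils. Fibrillins are the rods of the microfibrils, fibulins and microfibril-associated proteins link elastin to them and to cells, and enzymes of the lysyl oxidase family cross-link elastin. In the heart such fibres lie in the walls of coronary vessels, under the inner and outer linings, in the valves and between muscle bundles, and most elastin is laid down around birth and turns over slowly.

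The kept cells numbered 10498 in the Myh6-R404Q library, 6839 in the Prkag2-p.R299Q library and 14851 in WT, with medians of 1850, 2347 and 1416 unique molecular identifiers (UMIs), each of which marks 1 captured transcript. The file deposited for Myh6-R404Q also held every barcode of the other libraries with 0 entries that differ, so its remaining barcodes were used as that library, an assignment by elimination. Pairs of libraries shared 28 to 51 barcode sequences. Cells were clustered without the 10 genes and without the related matrix genes described last, so that the clusters do not rest on them. A class is called "-like" because it was named from marker genes. Dcn, a marker of the fibroblast list, is also among the related matrix genes. All markers of the fibroblast list, 9 of 9, were higher in fibroblast-like cells than in the rest in each library. Levels are in CPM, the UMIs of a gene as a share of all UMIs of its class on the usual scale. They come from transcript ends, and levels of one gene are not compared with those of another.

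Within each library, most UMIs of most elastic fibre genes lay in fibroblast-like cells, the connective tissue cells of the heart. For Fbn2, fibroblast-like cells held 91.3% of its UMIs in the Myh6-R404Q library, 85.9% in the Prkag2-p.R299Q library and 83.8% in WT. For Mfap5 the shares were 80.0%, 84.7% and 76.3%, for Mfap4 74.5%, 70.1% and 69.3%, and for Fbn1 64.7%, 70.9% and 65.2%. Eln and Fbln5 were spread more widely. Fibroblast-like cells held 49.0%, 43.3% and 31.4% of Eln UMIs. For Fbln5 they held 401 of 1022 UMIs in Myh6-R404Q, 301 of 716 in Prkag2-p.R299Q and 290 of 871 in WT. Arterial endothelial-like cells held 3.60% of Eln UMIs in the Myh6-R404Q library and 2.07% in the Prkag2-p.R299Q library, against 15.6% in WT. Mesothelial-like cells, from the outer lining of the heart, held 48.5% of Fbln1 UMIs in the Myh6-R404Q library and 38.7% in the Prkag2-p.R299Q library, against 19.6% in WT. These shares depend on how many cells of each class a library held: mesothelial-like cells numbered 1361, 577 and 794, and arterial endothelial-like cells 79, 41 and 235.

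**Figure D1:**
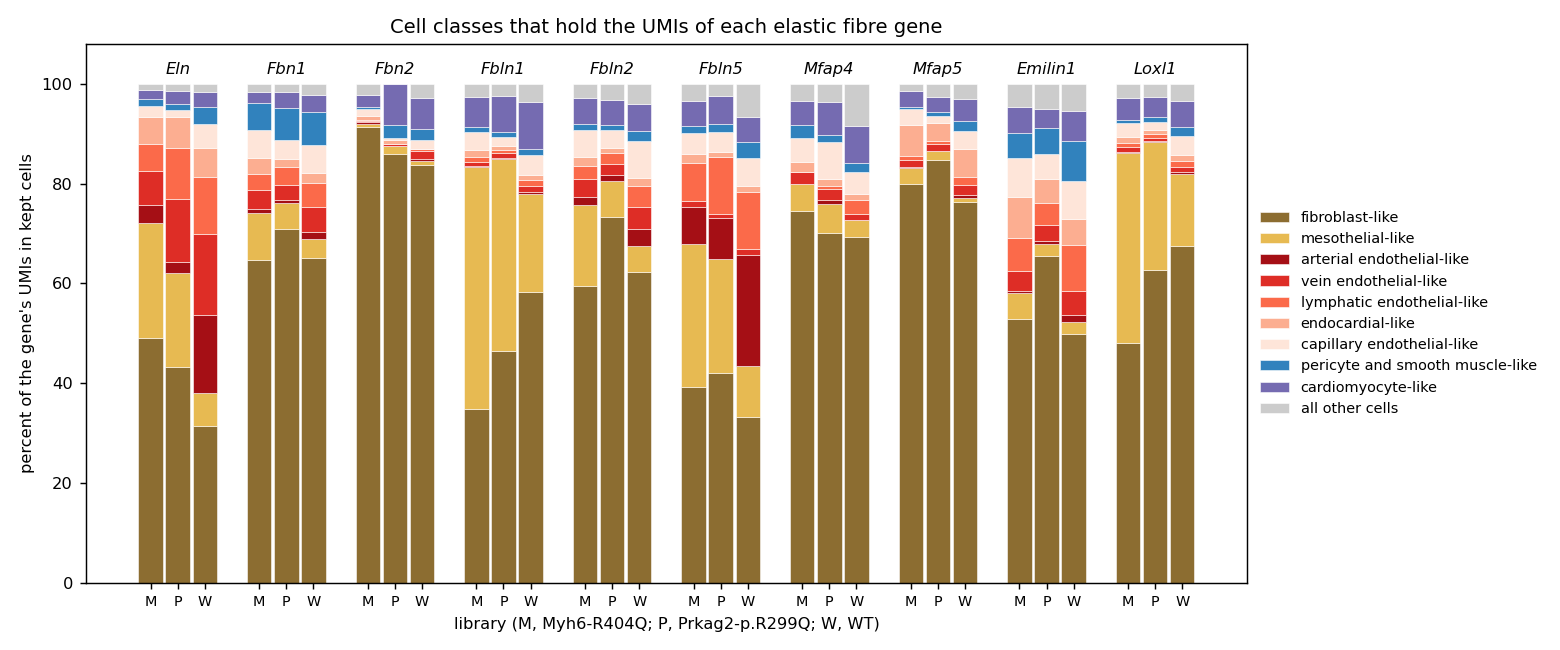
Percent of the UMIs of each elastic fibre gene that lay in each cell class, 1 stacked bar per library (M, Myh6-R404Q; P, Prkag2-p.R299Q; W, WT). Fbn2 is nearly all in fibroblast-like cells (91.3%, 85.9% and 83.8%), whereas Eln, Fbln1, Fbln5 and Loxl1 are shared with mesothelial-like or endothelial-like cells.

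Eln (ENSMUSG00000029675, chromosome 5, 134702593 to 134747323, minus strand, mm10) encodes tropoelastin, the monomer of elastin. Its level was highest in arterial endothelial-like cells of each library, at 1303 CPM in Myh6-R404Q (interval 1110 to 1519), 622 in the Prkag2-p.R299Q library (453 to 832) and 1998 in WT (1847 to 2158). Those values rest on 163, 45 and 645 UMIs, and in Prkag2-p.R299Q the interval overlaps that of vein endothelial-like cells. Vein endothelial-like cells had 407 CPM (362 to 455), 555 (492 to 625) and 588 (545 to 634), in the same order of libraries. Lymphatic endothelial-like cells had 359, 418 and 400 CPM, with intervals that all overlap.

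The order of the remaining classes differed between libraries. Fibroblast-like cells had 377 CPM of Eln in the Myh6-R404Q library (361 to 393), 160 in the Prkag2-p.R299Q library (150 to 170) and 182 in WT (172 to 192). Mesothelial-like cells had 272, 215 and 169 CPM. Endocardial-like cells, the inner lining, had 178, 235 and 275 CPM. In Myh6-R404Q the vein, fibroblast-like and lymphatic levels could not be told apart by their intervals. In Prkag2-p.R299Q and in WT, vein and lymphatic endothelial-like cells both stood above fibroblast-like cells, at 3.48 and 2.62 times their level in the Prkag2-p.R299Q library and 3.24 and 2.20 times in WT. Set against the fibroblast-like level of the same library, the arterial level was 3.46 times as high in the Myh6-R404Q library (2.93 to 4.05), 3.89 times in the Prkag2-p.R299Q library (2.82 to 5.25) and 11 times in WT (9.99 to 12.1). Smooth muscle-like cells, which build elastic layers in large arteries, had 277 CPM in Myh6-R404Q from 52 cells and 318 in WT from 190 cells. In Prkag2-p.R299Q they had 2 Eln UMIs in 18 cells, too few for a level.

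Free RNA from broken cells adds a low level of each gene to every droplet. Its size was judged from 4 fibroblast genes, Dcn, Col1a2, Col3a1 and Pdgfra: if a class held them only as free fibroblast RNA, Eln would come with them in the ratio seen in fibroblast-like cells. That would put Eln at 47.1, 29.6 and 26.0 CPM in arterial endothelial-like cells and at 73.7, 31.4 and 40.03 in endocardial-like cells, all below the measured levels. In capillary endothelial-like cells the measured level was 43.1 CPM in the Myh6-R404Q library, 25.4 in the Prkag2-p.R299Q library and 77.4 in WT, against 62.4, 23.2 and 32.8 from free RNA. The WT interval (66.9 to 88.9) lies above its estimate, the Prkag2-p.R299Q interval (17.4 to 35.8) holds it, and the Myh6-R404Q interval (35.0 to 52.6) lies below it. Cardiomyocyte-like cells had 11.3, 6.13 and 13.0 CPM, against 23.7, 6.69 and 10.4, and in WT the lower bound of 10.8 lay just above the estimate. This estimate cannot be used for mesothelial-like cells, which have these collagen transcripts of their own. Here and for the genes below, it leaves out RNA set free by classes other than fibroblast-like cells. Fibroblast-like cells held 2219 of 4531 Eln UMIs in Myh6-R404Q, 939 of 2171 in Prkag2-p.R299Q and 1298 of 4133 in WT. The capillary endothelial-like and cardiomyocyte-like Eln levels of WT are therefore not shown to exceed free RNA from all classes.

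**Figure D2:**
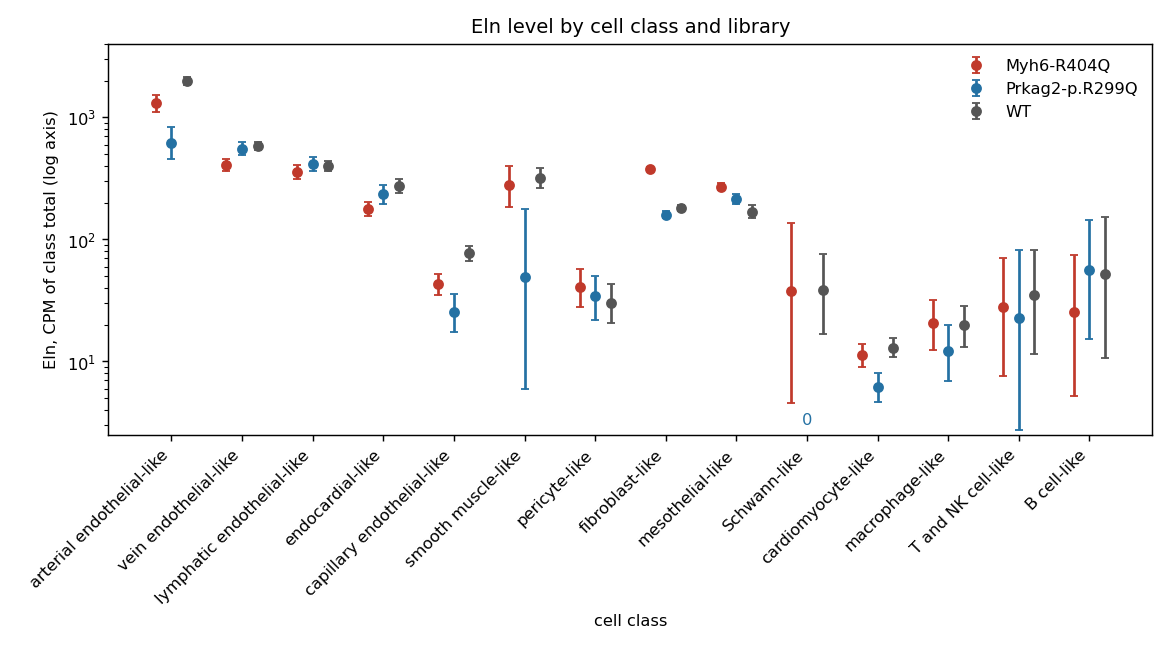
Eln level in CPM of the class total, on a log axis, by cell class and library (Myh6-R404Q, Prkag2-p.R299Q, WT); points are levels and bars are 95% Poisson intervals. Arterial endothelial-like cells are highest in each library, and fibroblast-like cells have 377 CPM in the Myh6-R404Q library, above the 160 in the Prkag2-p.R299Q library and the 182 in WT.

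Fbn1 (ENSMUSG00000027204, chromosome 2, 125300594 to 125507993, minus strand) encodes fibrillin-1, the main rod of adult microfibrils and the gene mutated in Marfan syndrome. Its level was highest in fibroblast-like cells, at 824 CPM in the Myh6-R404Q library, 656 in the Prkag2-p.R299Q library and 702 in WT. Pericyte-like cells, which wrap capillaries, followed with 478, 464 and 434 CPM. Arterial, vein and lymphatic endothelial-like cells had 312 to 428 CPM over all libraries, and their intervals overlap one another within each library. The free RNA estimate for pericyte-like cells was 153, 120 and 142 CPM, and in endocardial-like cells it came to 161, 129 and 155, close to the measured 171, 148 and 176.

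Fbn2 (ENSMUSG00000024598) encodes fibrillin-2, the fibrillin of developing tissue. Fibroblast-like cells had 91.0 CPM in the Myh6-R404Q library, 37.4 in the Prkag2-p.R299Q library and 72.4 in WT. Of the other classes with at least 200 cells in each library, none passed 11.4 CPM, the level in WT pericyte-like cells. Of thinned fibroblast-like cells, each reduced to 1000 UMIs, 5.47% had a Fbn2 UMI in the Myh6-R404Q library, 3.16% in the Prkag2-p.R299Q library and 4.08% in WT. In cardiomyocyte-like cells thinned alike, the share was 0.0842%, 0.391% and 0.315%.

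The 3 fibulins, from a family of secreted proteins that bind elastin, microfibrils or other matrix, differed in where they were high. Fbln1 (ENSMUSG00000006369, chromosome 15, 85205949 to 85286535, plus strand) was highest among classes of at least 200 cells in mesothelial-like cells, at 385 CPM in the Myh6-R404Q library, 431 in the Prkag2-p.R299Q library and 299.1 in WT. Fibroblast-like cells followed with 182, 168 and 200 CPM, and endocardial-like and pericyte-like cells, at 20.9 to 33.2 CPM, lay at or below the free RNA estimates of 30.6 to 44.1. Fbln2 (ENSMUSG00000064080, chromosome 6, 91212455 to 91272540, plus strand), which joins microfibrils to other matrix proteins, had 347, 433 and 372 CPM in fibroblast-like cells and 440, 566 and 440 in arterial endothelial-like cells, with intervals that overlap in each library. Fbln5 (ENSMUSG00000021186, chromosome 12, 101746565 to 101819055, minus strand) encodes a fibulin needed to assemble elastic fibres in mice. It was highest in arterial endothelial-like cells, at 615, 801 and 601 CPM, with free RNA estimates of 8.51, 9.49 and 5.81. That was 9.04, 15.7 and 14.8 times the fibroblast-like level of 68.1, 51.2 and 40.6 CPM. Lymphatic endothelial-like cells had 113, 155 and 85.5 CPM of Fbln5, while vein endothelial-like cells, in which Eln was high, had 15.9, 12.1 and 8.72 CPM.

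Because the fibulins belong to one family and were high in different classes, the 250 bases before their RefSeq starts are shown (GRCm38.p6, each 5′ to 3′ on the gene's own strand). They lie at chr15:85205699-85205948 (plus strand), chr6:91212514-91212763 (plus strand) and chr12:101819120-101819369 (minus strand). Capitals mark matches, on either strand, to TATAAA (the TATA box), CCAAT (the CCAAT box), GGGCGG (the GC box), TGANTCA (the AP-1 site) or TGGGAA (the core of RBPJ sites).
Fbln1: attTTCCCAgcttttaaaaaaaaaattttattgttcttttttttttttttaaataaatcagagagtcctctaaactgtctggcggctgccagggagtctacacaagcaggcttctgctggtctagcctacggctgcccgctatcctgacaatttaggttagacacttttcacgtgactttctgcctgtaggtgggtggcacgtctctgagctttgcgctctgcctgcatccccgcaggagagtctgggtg
Fbln2: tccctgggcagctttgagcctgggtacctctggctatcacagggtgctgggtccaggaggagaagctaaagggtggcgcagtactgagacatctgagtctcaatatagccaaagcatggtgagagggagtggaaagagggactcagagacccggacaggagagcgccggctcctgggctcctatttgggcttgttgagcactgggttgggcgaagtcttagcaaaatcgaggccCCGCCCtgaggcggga
Fbln5: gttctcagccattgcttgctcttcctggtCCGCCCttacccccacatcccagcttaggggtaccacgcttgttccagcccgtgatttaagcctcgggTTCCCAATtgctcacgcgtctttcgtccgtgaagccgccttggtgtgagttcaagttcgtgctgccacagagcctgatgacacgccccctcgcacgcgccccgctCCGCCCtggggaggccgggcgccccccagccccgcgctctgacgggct
The Fbln5 window held 2 GC boxes, 1 CCAAT and 1 TGGGAA, of which the last overlap each other. The Fbln2 window held 1 GC box, and the Fbln1 window 1 TGGGAA near its far end. The RefSeq start of Fbln2 is 309 bases downstream of the annotated gene start above, so its window lies inside the annotated gene. The RefSeq start of Fbln5 is 64 bases upstream of its annotated start. Of all 32851 promoter windows of this length, 32.7% hold a GC box, 33.9% a CCAAT and 21.6% a TGGGAA, so each match is common. TATAAA, in 12.4% of windows, and TGANTCA, in 6.75%, were in none of the 3 printed windows. Matches are described as letters only, and 5 of the 10 genes were found in the promoter table.

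Mfap5 (ENSMUSG00000030116, chromosome 6, 122505845 to 122529290, plus strand) encodes a small glycoprotein of microfibrils. It had 243 CPM in Myh6-R404Q fibroblast-like cells, 265 in the Prkag2-p.R299Q library and 232 in WT. Endocardial-like cells had 80.2, 115 and 135 CPM, above the free RNA estimates of 47.5, 52.1 and 51.1. Vein endothelial-like cells had 33.1, 48.3 and 38.4 CPM, and their intervals reach down to the free RNA estimates, except that in Prkag2-p.R299Q the lower bound of 30.9 lay just above 30.4. Mfap4 (ENSMUSG00000042436, chromosome 11, 61485431 to 61488900, plus strand), a fibrinogen-like protein of microfibrils, was scarce, with 25.8, 16.3 and 17.1 CPM in fibroblast-like cells from 152, 96 and 122 UMIs.

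Emilin1 (ENSMUSG00000029163, chromosome 5, 30913402 to 30921277, plus strand) encodes a protein at the border of elastin and microfibrils that also serves lymphatic vessels. Its levels in fibroblast-like cells, 60.1, 58.3 and 53.3 CPM, and in lymphatic endothelial-like cells, 64.5, 43.5 and 59.2 CPM, could not be told apart by their intervals in any library. Smooth muscle-like cells of WT had 88.9 CPM (60.4 to 126). Loxl1 (ENSMUSG00000032334, chromosome 9, 58287738 to 58313186, minus strand) encodes a lysyl oxidase that cross-links elastin and is needed for its renewal in mice. It had 307 CPM in Myh6-R404Q mesothelial-like cells, 298.5 in the Prkag2-p.R299Q library and 258 in WT, and 255, 236 and 271 in fibroblast-like cells. Outside those classes, the highest level in a class with at least 200 cells in each library was 45.03 CPM, in vein endothelial-like cells of Myh6-R404Q, where the free RNA estimate was 38.6.

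**Figure D3:**
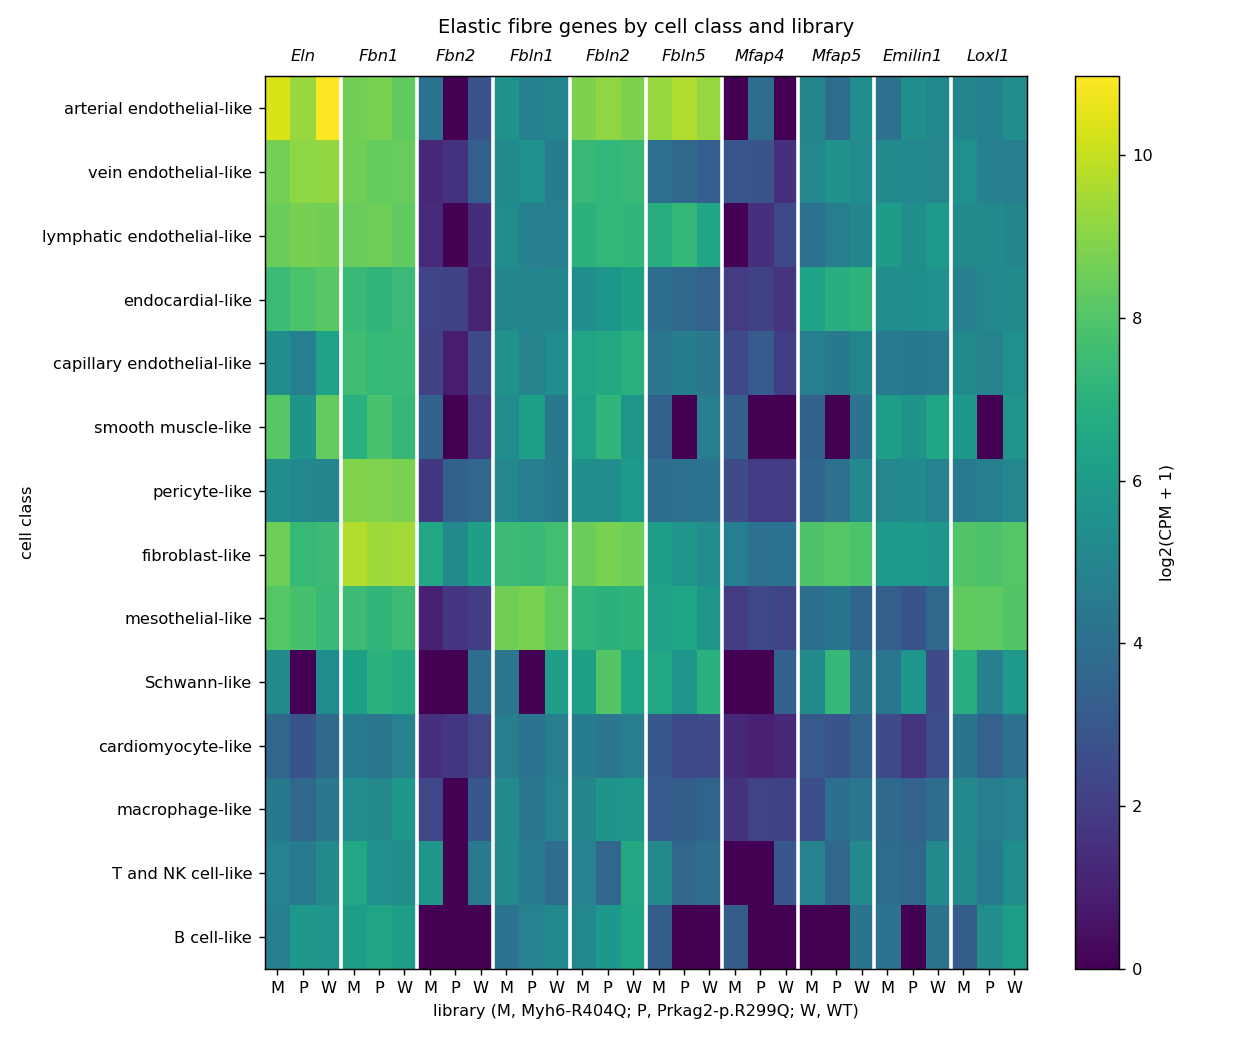
Level of each elastic fibre gene as log2(CPM + 1), by cell class (rows) and library (columns M, Myh6-R404Q; P, Prkag2-p.R299Q; W, WT); darkest cells hold no UMI. Within their own columns, Eln and Fbln5 are brightest in arterial endothelial-like cells (1303 and 615 CPM in Myh6-R404Q), Fbln1 in mesothelial-like cells (385) and Fbn2 in fibroblast-like cells (91.0).

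Fibroblast-like cells were clustered again, and 4 clusters held at least 100 cells in each library. An interstitial-like cluster (Kcnip1 leading) held 1126 cells in the Myh6-R404Q library, 930 in the Prkag2-p.R299Q library and 425 in WT. An adventitial-like cluster held 605, 696 and 1139. An unnamed cluster led by Shisa9 held 339, 320 and 1090, and another, led by muscle transcripts such as Ttn, held 780, 266 and 1544. Fbn2 was among the 10 leading genes of the Shisa9 cluster although it had been left out of the genes used for clustering, and no further use is made of that rank. The mix thus differed between libraries, with 11.8% of fibroblast-like cells in the Shisa9 cluster in the Myh6-R404Q library and 14.4% in the Prkag2-p.R299Q library, against 25.3% in WT. These shares depend on where the border of the cluster falls. The first clustering gave a cluster led by Shisa9 332, 287 and 693 cells, of 2881, 2229 and 4308 fibroblast-like cells. Clustering with the 10 genes and the related matrix genes included gave one led by Fbn2 and Shisa9 328, 278 and 549 cells.

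Several elastic fibre genes differed between the adventitial-like and interstitial-like clusters in the same direction in the 3 libraries. In the adventitial-like cluster, of the sheath around vessels, Mfap5 was at 497 CPM in the Myh6-R404Q library, 442 in the Prkag2-p.R299Q library and 402 in WT, against 172, 178 and 158 in the interstitial-like cluster, which is 2.89, 2.48 and 2.55 times as high. Fbn1 was 1.958, 2.68 and 2.58 times as high there, and Fbln2 2.20, 2.48 and 1.91 times. Fbln5 went the other way, at 0.655, 0.694 and 0.629 times its interstitial-like level, with upper bounds of 0.865, 0.924 and 0.921.

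The Shisa9 cluster had high Eln and Fbn2 and low Fbln2 and Mfap5. Fbn2 was at 635, 209 and 242 CPM there, against 40.6, 19.7 and 28.5 in the interstitial-like cluster and 3.59, 2.94 and 4.89 in the adventitial-like cluster. Eln was at 918, 377 and 277 CPM in the Shisa9 cluster, against 345, 133 and 165 in the interstitial-like and 242, 120 and 127 in the adventitial-like cluster. Fbln1 was 1.83, 1.51 and 1.40 times its interstitial-like level in the Shisa9 cluster. Fbln2 was at 119, 149 and 214 CPM, which is 0.198, 0.207 and 0.403 times its adventitial-like level. Loxl1 lay between 198 and 287 CPM over the 4 clusters and 3 libraries.

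**Figure D4:**
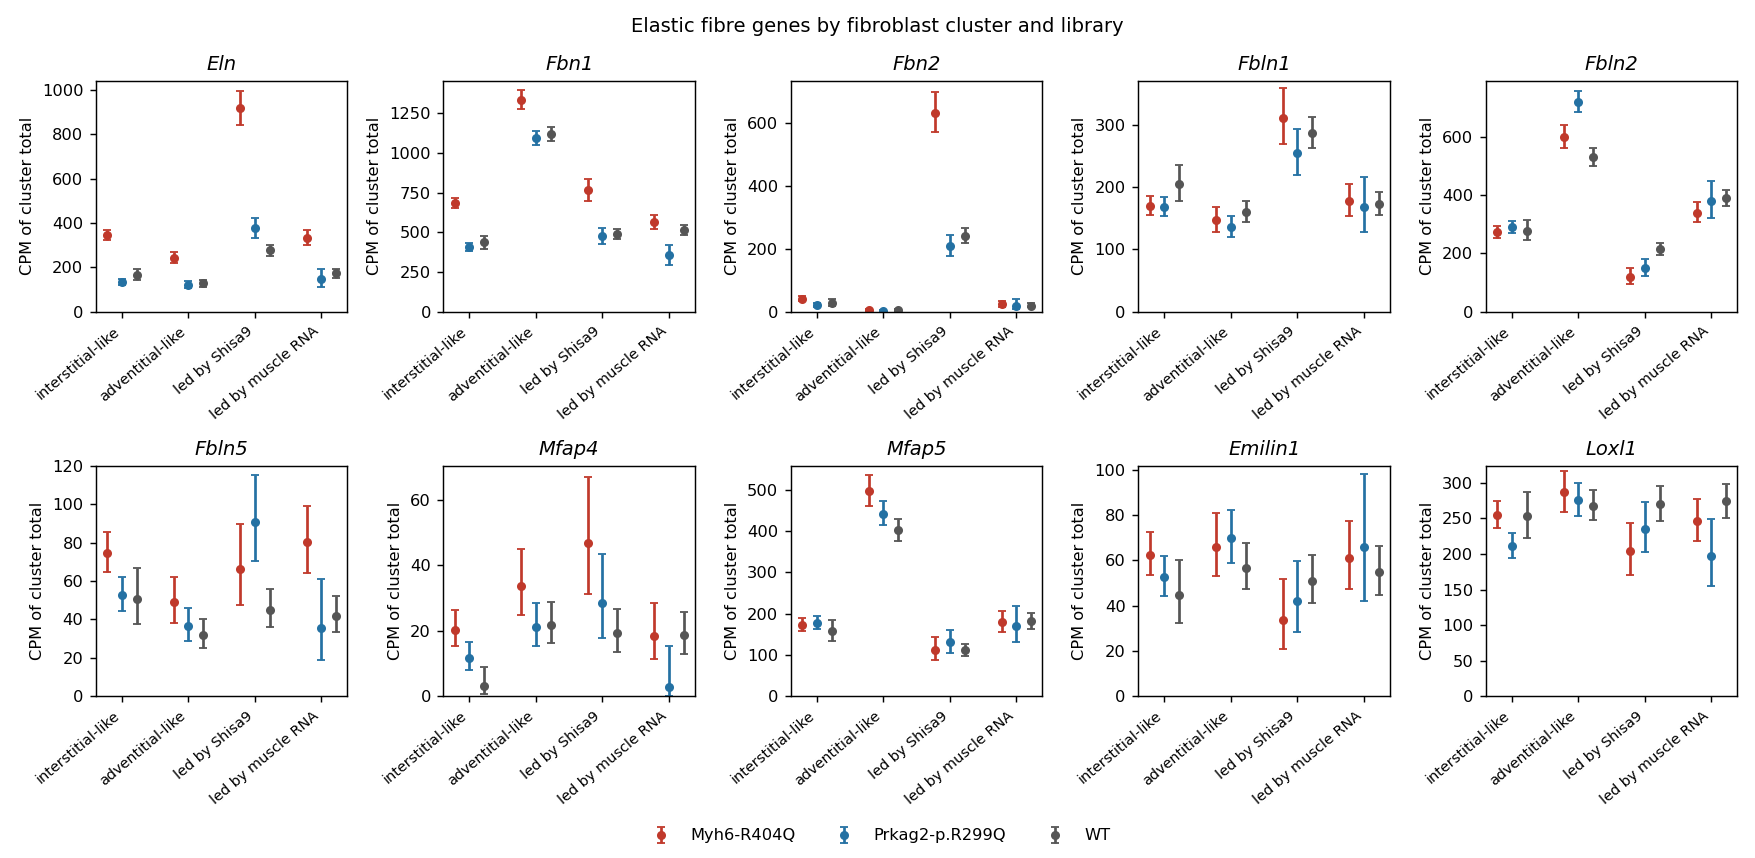
Level of each elastic fibre gene in CPM of the cluster total, by fibroblast cluster and library (Myh6-R404Q, Prkag2-p.R299Q, WT), with 95% Poisson intervals. Eln and Fbn2 stand highest in the Shisa9 cluster, at 918 and 635 CPM in the Myh6-R404Q library, and Mfap5, Fbn1 and Fbln2 in the adventitial-like cluster.

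Set against WT, Myh6-R404Q fibroblast-like cells had more Eln, Fbln5 and Mfap4. Eln was 2.07 times as high (1.94 to 2.22), from 2219 UMIs in the Myh6-R404Q library and 1298 in WT. Fbln5 was 1.68 times as high (1.44 to 1.958), from 401 and 290 UMIs, and Mfap4 1.51 times (1.18 to 1.93), from 152 and 122. The other 7 genes lay between 0.907 times for Fbln1 and 1.26 times for Fbn2, with Fbn1 at 1.18 times (1.13 to 1.22). Thus 3 of 10 were at least 1.5-fold higher, where 4.43% of the 10521 genes that reached 10 CPM in Myh6-R404Q or WT were, and 0 were at least 1.5-fold lower, where 4.9% of genes were. All 10 passed that minimum. The median log2 ratio of those 10521 genes, taken on CPM + 1, was 0.015. That median is over all such genes, and the sums of marker lists in these cells differed between libraries, as given below.

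The same Eln UMIs were also counted per cell and per Fbn1 UMI, which adds no separate evidence. After thinning, 25.0% of Myh6-R404Q fibroblast-like cells had an Eln UMI (23.4 to 26.7) and 12.9% of those in the Prkag2-p.R299Q library (11.5 to 14.4), against 14.8% in WT (13.6 to 16.01). Before thinning the shares were 38.4% in the Myh6-R404Q library, 25.4% in the Prkag2-p.R299Q library and 21.5% in WT, at median depths of 1905, 2528 and 1539 UMIs. Thinning kept 2667 of 2881, 2092 of 2229 and 3529 of 4308 cells. In thinned cardiomyocyte-like cells, where the Eln level was low, the share was 1.18%, 0.587% and 1.31%. Cells with a UMI held 1.49 Eln UMIs on average in the Myh6-R404Q library and 1.42 in the Prkag2-p.R299Q library, against 1.23 in WT, and the richest single cell held 1.80%, 2.66% and 0.770% of the Eln UMIs. Per Fbn1 UMI there were 0.457 Eln UMIs in the Myh6-R404Q library (0.435 to 0.481) and 0.244 in the Prkag2-p.R299Q library (0.227 to 0.262), against 0.259 in WT (0.243 to 0.275).

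Within each cluster Eln was higher in Myh6-R404Q than in WT, at 2.10 times in the interstitial-like (1.77 to 2.49), 1.91 times in the adventitial-like (1.62 to 2.24), 3.32 times in the Shisa9 (2.94 to 3.75) and 1.93 times in the muscle RNA cluster (1.66 to 2.25). Fbln5 ran from 1.47 to 1.92 times over the 4 clusters, and in the Shisa9 cluster its interval, 0.983 to 2.16, spans 1. Mfap4 was at 0.994 times in the muscle RNA cluster (0.544 to 1.77) and at 2.43 times in the Shisa9 cluster (1.43 to 4.09). In the interstitial-like cluster the ratio was 6.597 (2.14 to 33.0), from 55 Mfap4 UMIs in Myh6-R404Q and 3 in WT. Under another scaling (median of ratios) the pooled log2 ratio of Mfap4 was 0.58, just under the 1.5-fold limit, and without the Shisa9 cluster it was 0.51. Fbn2 was at 2.62 times in the Shisa9 cluster (2.28 to 3.01). With the border of that cluster drawn by the first clustering, which gave it 332 and 693 cells, Fbn2 was at 1.70 times (1.48 to 1.95) and Eln at 2.74 times (2.39 to 3.14).

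Sums of marker lists differed between these fibroblast-like cells too. The fibroblast list itself, with 9 of 9 genes, summed to 6135 CPM in Myh6-R404Q cells and 6311 in Prkag2-p.R299Q cells, against 4508 in WT. The capillary endothelial list, with 8 of 8 genes, summed to 565 and 375 CPM, against 863 in WT. The mesothelial list, with UMIs of 7 of 7 genes in each library, summed to 139 CPM in the Myh6-R404Q library and 66.3 in the Prkag2-p.R299Q library, against 67.3 in WT. In mesothelial-like cells themselves the same list summed to 4811, 5768 and 4864 CPM, and their Eln level in the Myh6-R404Q library, 272 CPM, was below the 377 of fibroblast-like cells. The arterial list summed to 18.7, 11.2 and 31.1 CPM with UMIs of 7, 6 and 7 of 7 genes (Prkag2-p.R299Q lacked 1 gene), and the smooth muscle list to 59.6, 57.1 and 101 CPM with UMIs of 7 of 7 genes. The cardiomyocyte list, with 7 of 7 genes, summed to 6843, 4521 and 8565 CPM. Their part in the Eln difference was not tested. Without the muscle RNA cluster, a choice made after the data were seen, the log2 ratio of Eln was 1.06, against 1.05 with it.

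Set against WT, Prkag2-p.R299Q fibroblast-like cells had less Fbn2, at 0.517 times (0.440 to 0.607), from 220 UMIs in the Prkag2-p.R299Q library and 517 in WT. Fbln5 was 1.26 times as high (1.07 to 1.49), Fbln2 1.16 times (1.10 to 1.23) and Mfap5 1.14 times (1.07 to 1.23). Eln was at 0.879 times (0.807 to 0.957), Fbln1 at 0.837 times (0.771 to 0.908) and Loxl1 at 0.871 times (0.813 to 0.934). So 1 of 10 genes was at least 1.5-fold lower, where 6.08% of 10469 genes were, and 0 were at least 1.5-fold higher, where 3.17% were, shares near those of all genes. Inside the Shisa9 cluster Fbn2 was at 0.862 times (0.713 to 1.04), and with the border of the first clustering at 0.571 times (0.470 to 0.691). Beside the pooled ratio stand the shares of the Shisa9 cluster, 14.4% of fibroblast-like cells in the Prkag2-p.R299Q library and 25.3% in WT. With the border of the first clustering the cluster held 287 of 2229 cells in the Prkag2-p.R299Q library and 693 of 4308 in WT. The part of these shares in the pooled ratio was not tested.

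Prkag2-p.R299Q and Myh6-R404Q fibroblast-like cells differed in 3 of 10 genes by at least 1.5-fold, all lower in the Prkag2-p.R299Q library, where 3.97% of 10459 genes were lower by as much. No gene of the set was at least 1.5-fold higher in Prkag2-p.R299Q (0 of 10), where 2.51% of genes were. Fbn2 was at 0.411 times (0.350 to 0.482), Eln at 0.424 times (0.392 to 0.458) and Mfap4 at 0.632 times (0.485 to 0.822). Fbn1 was at 0.796 times (0.762 to 0.830) and Fbln2 at 1.25 times (1.17 to 1.32). Eln was lower in each of the 4 clusters, at 0.386 to 0.497 times. With cells thinned to 1000 UMIs the log2 ratio of Mfap4 was -0.41, under the 1.5-fold limit. This comparison shares its libraries with the others and adds no separate evidence.

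To set the mix of clusters aside, each library was given the same shares of the fibroblast clusters. These ratios rest on the borders of the second clustering and were not computed with those of the first. The Fbn2 ratios inside the Shisa9 cluster differed between the borders, as given above. Eln in Myh6-R404Q was then 2.35 times the WT level (2.18 to 2.53) and Fbn2 2.27 times (1.998 to 2.59), where the pooled Fbn2 value was 1.26 times. Mfap4 was at 1.90 times (1.48 to 2.44) and Fbln5 at 1.58 times (1.34 to 1.86). In Prkag2-p.R299Q against WT, Eln was at 0.993 times (0.899 to 1.10) and Fbn2 at 0.841 times (0.707 to 1.0). The Prkag2-p.R299Q to Myh6-R404Q ratios were 0.423 for Eln and 0.370 for Fbn2.

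**Figure D5:**
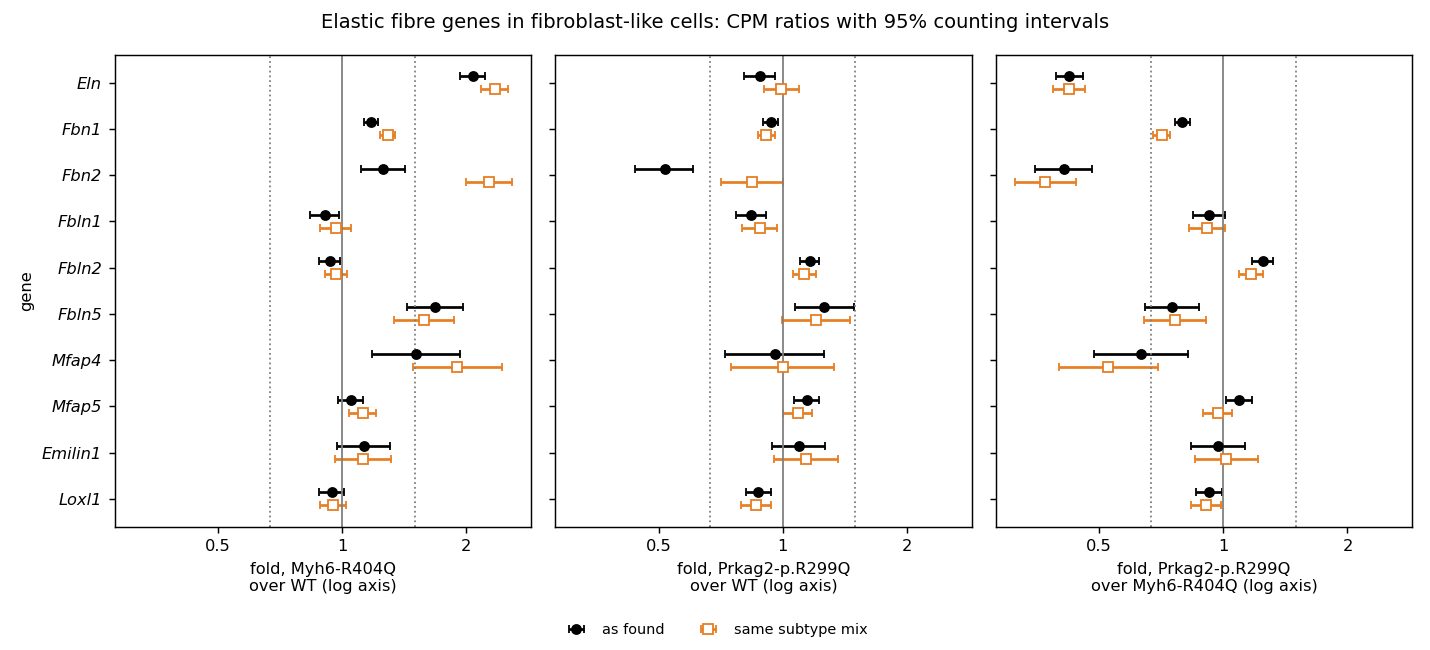
Ratio of CPM in fibroblast-like cells for each elastic fibre gene in the 3 comparisons, on a log axis with 95% counting intervals; filled circles use the cells as found, open squares the same mix of fibroblast clusters in each library, and dotted lines mark 1.5-fold. Eln lies at 2.07 and 2.35 times in Myh6-R404Q over WT. With the cluster borders used here, Fbn2 is the gene that the mix moves most, 1.26 against 2.27 times.

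The Eln ratios of other classes lay on both sides of 1. Mesothelial-like cells had 1.61 times as much in Myh6-R404Q as in WT (1.41 to 1.85) and 1.27 times in Prkag2-p.R299Q as in WT (1.09 to 1.49). That class held 2 main clusters: a Muc16 cluster, at 1.26 times in the Myh6-R404Q library (1.06 to 1.51), and one led by Rspo2, at 1.79 times (1.43 to 2.27), with 601 Myh6-R404Q and 263 WT cells in the Rspo2 cluster. Endocardial-like cells of Myh6-R404Q had 0.647 times the WT level (0.540 to 0.776) and vein endothelial-like cells 0.691 times (0.602 to 0.793). In lymphatic endothelial-like cells the ratio was 0.898 (0.766 to 1.05). Prkag2-p.R299Q vein and endocardial-like cells were at 0.944 times (0.818 to 1.09) and 0.854 times (0.687 to 1.06) the WT level, and both intervals span 1. Capillary endothelial-like cells had 0.558 times the WT level of Eln in Myh6-R404Q (0.433 to 0.714) and 0.328 times in Prkag2-p.R299Q (0.219 to 0.479). Their ratio of Prkag2-p.R299Q to Myh6-R404Q was 0.589 (0.382 to 0.885), but in both mutants the capillary level was not above the free RNA estimate by its interval. The WT capillary level was above that estimate, which counts free RNA of fibroblast-like cells only. Differences between classes in these ratios were not tested. Arterial and smooth muscle-like cells, with under 200 cells in a library, were given levels only.

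Mesothelial-like cells of the mutants also had more Fbln1, Fbln5 and Loxl1 than those of WT. Fbln1 was at 1.29 times in the Myh6-R404Q library (1.16 to 1.43) and 1.44 times in the Prkag2-p.R299Q library (1.29 to 1.61). Fbln5 was at 1.38 times (1.08 to 1.77) and 1.57 times (1.21 to 2.06), and Loxl1 at 1.19 times (1.07 to 1.34) and 1.16 times (1.02 to 1.32). Fbn1 did not rise in the same way, at 1.01 times (0.882 to 1.16) and 0.821 times (0.695 to 0.970). These pooled ratios are not split by the Muc16 and Rspo2 clusters, and no share over all genes is given for this class. In lymphatic endothelial-like cells Fbln5 was 1.81 times the WT level in the Prkag2-p.R299Q library (1.34 to 2.45) and 1.32 times in the Myh6-R404Q library (0.969 to 1.80). In endocardial-like cells Mfap5 was 0.594 times the WT level in the Myh6-R404Q library (0.454 to 0.776) and 0.849 times in the Prkag2-p.R299Q library (0.619 to 1.16).

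A list of 55 other genes of the elastic fibre pathway went both ways in fibroblast-like cells. In Myh6-R404Q against WT, 42 had at least 10 CPM, 3 were at least 1.5-fold higher and 4 at least 1.5-fold lower, with a median log2 ratio of 0.16 against 0.015 over all genes. In Prkag2-p.R299Q against WT, 43 were measured, 4 higher and 1 lower, with a median of 0.15 against -0.0027. In Prkag2-p.R299Q against Myh6-R404Q, 6 of 43 were higher and 0 lower, with a median of -0.038 against -0.025. The medians over all genes were taken on CPM + 1 and those of the list on CPM, so they are not the same measure. Of all genes, 4.43% were higher and 4.9% lower in the first comparison, 3.17% and 6.08% in the second, and 2.51% and 3.97% in the third.

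Among the other cross-linking enzymes, Loxl2 had 58.8 CPM in the Prkag2-p.R299Q library, against 35.0 in WT (1.68 times, 1.43 to 1.99), and Lox, the founding member of the family, had 6.45 CPM in the Myh6-R404Q library, 8.33 in the Prkag2-p.R299Q library and 9.10 in WT, below the minimum. Of 17 measured genes of the microfibril and its partners, 0 were at least 1.5-fold higher and 3 lower in Myh6-R404Q than in WT (Adamtsl4, Vcan and Ltbp2), where 4.43% and 4.9% of all genes were. In Prkag2-p.R299Q against WT, 1 was higher (Adamtsl2) and 0 lower, where 3.17% and 6.08% of all genes were. Adamtsl4, which promotes fibrillin-1 microfibrils, had 29.5 CPM in the Myh6-R404Q library, against 52.2 in WT (0.566 times, 0.470 to 0.679). Vcan, the proteoglycan versican, had 242 CPM, against 368 in WT (0.657 times, 0.616 to 0.701). Adamtsl2, which binds fibrillin-1, had 60.4 CPM in the Prkag2-p.R299Q library, against 35.1 in WT (1.72 times, 1.46 to 2.03), and was 2.07 times its Myh6-R404Q level (1.72 to 2.49). Ltbp2, a microfibril protein, had 22.3 CPM in the Prkag2-p.R299Q library, against 10.9 in Myh6-R404Q (2.05 times, 1.51 to 2.81), and Adamtsl4 was 1.80 times its Myh6-R404Q level (1.49 to 2.18).

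In the EMILIN family, Emilin2 had 55.9 CPM in the Prkag2-p.R299Q library, against 36.8 in WT (1.52 times, 1.29 to 1.79). Mmrn1, a family member made by endothelial cells and platelets, had 10.7 CPM in the Myh6-R404Q library and 7.31 in the Prkag2-p.R299Q library, against 23.7 in WT (0.452 and 0.309 times). The lymphatic endothelial list in the same cells summed to 97.5, 79.9 and 169 CPM with UMIs of 6 of 6 genes, and its part in this difference was not tested. Of 10 measured receptors, 2 were higher in Myh6-R404Q than in WT, Itga8 and the scarce Neu1, where 4.43% of all genes were, and 1 in the Prkag2-p.R299Q library, again Neu1, where 3.17% were. Neu1, a sialidase of the elastin receptor complex, is below the 20 CPM set for naming genes and was named after its values were seen: it had 12.4 CPM in the Myh6-R404Q library and 11.6 in the Prkag2-p.R299Q library, against 7.14 in WT. Itga8, an integrin chain of fibroblasts and smooth muscle, had 58.1 CPM in the Myh6-R404Q library, against 35.7 in WT (1.63 times, 1.38 to 1.92). The lysosomal protease Ctsl had 80.0 CPM, against 47.3 in WT (1.69 times, 1.47 to 1.95). Timp3, a matrix-bound protease inhibitor, had 329 CPM in the Prkag2-p.R299Q library, against 201 in Myh6-R404Q (1.64 times, 1.52 to 1.76).

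Over 37 sums of a class in a library with at least 50 cells each, the genes of the set fell into different patterns. These points share libraries, depth and cell classes, so correlations of log2(CPM + 1) are given as a description. Fbln1 was most like Loxl1 (r = 0.885), both being high in mesothelial-like and fibroblast-like cells. Eln was most like Osmr, Nxn and Cadps2 (r = 0.810, 0.806 and 0.804), and among the set like Fbln2 (r = 0.771). Fbn1 was most like Fbxl7, Nid1 and Fstl1 (r = 0.873, 0.873 and 0.862). Fbn2 was most like Tbx6 (r = 0.749), Fbln2 like Thsd7a (r = 0.865), Fbln5 like Trpm6 (r = 0.716), Mfap4 like Thbs2 (r = 0.681), Mfap5 like Gk5 (r = 0.802), Emilin1 like Atp2b4 (r = 0.817) and Loxl1 like Lvrn (r = 0.896). Eln and Fbn2, high together in the Shisa9 cluster, had r = 0.112 over the classes.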

How the data were processed

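Single cells were captured with a 10x 3′ kit, per the labels' protocols, and counted with Cell Ranger 7.0.1 on mm10, per the submitters' processing notes. The authors deposited UMI counts per gene and barcode. Intron counting is not given in the sources used here. Barcodes needed 500 UMIs, 300 genes and at most 20% mitochondrial UMIs. Scrublet in scanpy 1.11.5 called 2163 (Myh6-R404Q), 1112 (Prkag2-p.R299Q) and 3182 (WT) doublets, 17.1%, 14.0% and 17.7% of barcodes, which were removed. From 2000 variable genes and 30 principal components, leidenalg 0.10.2 clustered the cells at resolution 1.5, and fibroblast-like cells again at 0.5. Clusters were named from fixed marker lists. Counts were summed per class and library. CPM have exact Poisson, ratios exact conditional binomial and shares exact Clopper-Pearson intervals at 95%. Ratios were counted past 1.5-fold where a gene reached 10 CPM in 1 or both libraries. Standardised ratios give each library the same fibroblast mix, with intervals by a normal approximation on the log scale. With 3 libraries, 1 per genotype, there was no test. Total depth was 38251499, 31385005 and 41047991 UMIs. The code was tested on simulated data. Free RNA was not removed. Coordinates are from GENCODE vM21, promoter sequences from RefSeq. All 10 genes are named. Of the pathway genes, those at 20 CPM and 1.5-fold with an interval beyond 1.2-fold are named, and for likeness the genes of highest correlation. The genes and lists were chosen with earlier results of these data known. Alternatives were another scaling, coarser clustering, other filters, thinning, and the Myh6-R404Q file as deposited.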

Additional observations from a re-analysis of the deposited data

Results flagged for a closer look

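Eln ratios lay on opposite sides of 1 in different cell classes, both in Myh6-R404Q over WT and between the mutants. The comparison between the mutants has no control and shares the Myh6-R404Q library with the first. Ratios of Prkag2-p.R299Q over WT are given above. In Myh6-R404Q over WT it was 2.07 times as high in fibroblast-like cells (1.94 to 2.22) and 1.61 times in mesothelial-like cells (1.41 to 1.85). It was 0.647 times as high in endocardial-like cells (0.540 to 0.776) and 0.691 times in vein endothelial-like cells (0.602 to 0.793). In Prkag2-p.R299Q over Myh6-R404Q the ratio was 1.32 in endocardial-like cells (1.06 to 1.63) and 1.37 in vein endothelial-like cells (1.16 to 1.61). It was 0.424 in fibroblast-like cells (0.392 to 0.458) and 0.791 in mesothelial-like cells (0.704 to 0.887). Capillary endothelial-like cells, whose Eln level in both mutants was not above the free RNA estimate by its interval, were at 0.558 times in Myh6-R404Q over WT (0.433 to 0.714) and 0.589 times in Prkag2-p.R299Q over Myh6-R404Q (0.382 to 0.885). The WT capillary level was above that estimate, which counts free RNA of fibroblast-like cells only. Each ratio interval in this paragraph lies on 1 side of 1, but with 1 library per genotype the difference between classes was not tested.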

How the results depend on the processing

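No paired analysis was possible because each genotype has 1 library and the labels give no replicate numbers to pair. The 30 ratios of 10 genes in 3 comparisons were recomputed under 11 alternatives. Of 7 past 1.5-fold, 1 stayed past it under each alternative, Fbn2 in Prkag2-p.R299Q over Myh6-R404Q, with log2 ratios of -1.46 to -0.847. The Eln ratios of Myh6-R404Q over WT and of Prkag2-p.R299Q over Myh6-R404Q fell under it only with the Myh6-R404Q file as deposited. The same held for Fbln5 in Myh6-R404Q over WT. Of the 30 ratios, 6 changed sign under some alternative, and each of those was within 1.5-fold in the main analysis. With the Myh6-R404Q file taken as deposited, which mixes in the other libraries, the log2 ratio of Eln was 0.37 over WT and -0.56 for Prkag2-p.R299Q over Myh6-R404Q, and 0 genes were at least 1.5-fold higher over WT and 1 was lower in Prkag2-p.R299Q over Myh6-R404Q. At the same fibroblast mix the log2 ratio of Eln was 1.23 for Myh6-R404Q over WT and -0.0105 for Prkag2-p.R299Q over WT. With cells thinned to 1000 UMIs it was -0.000651 for Prkag2-p.R299Q over WT and -1.035 over Myh6-R404Q. The number of genes at least 1.5-fold lower in Prkag2-p.R299Q than in WT was 0 at the same mix, 0 without the Shisa9 cluster (an alternative chosen after the data were seen) and 0 at a 2-fold limit. At 2-fold, 1 gene was higher in Myh6-R404Q than in WT. Beyond what each alternative does by construction, the cause was not tested. Mfap4, with 96 to 152 UMIs in fibroblast-like cells, is limited by depth.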
